A study of Homo sapiens with 16 samples.

Results

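The CC chemokines examined were 9 ligands, CCL2, CCL5, CCL7, CCL8, CCL11, CCL13, CCL20, CCL26 and CCL28, chosen by name from the 60649 genes in the deposited count table. All 9 were in the table and 8 passed the filter on low counts, which kept 19103 genes in all. CCL5 did not pass. The names were chosen with results for mitomycin C (MmC) known, so the values of the 9 genes with and without MmC are a description and carry no test. Poly(A)-enriched RNA was sequenced from ASC52telo, a line of adipose-derived mesenchymal stem cells (MSCs) immortalized with telomerase reverse transcriptase. Senescent MSCs had been exposed to the DNA alkylating agent MmC at 1.5 µg/mL for 18 h, and "young" MSCs had not. Recombinant growth differentiation factor 11 (GDF11), at 10 ng/mL, was added or not added in the following 10 days. The young groups were MmC-/GDF11- and, with added GDF11, MmC-/GDF11+. The senescent groups were MmC+/GDF11- and, with added GDF11, MmC+/GDF11+. Each of the 4 groups had 4 biological replicates. All 16 libraries came from 1 immortalized line, so the replicates did not sample different donors, and every cell carried the introduced telomerase.

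Chemokines are small secreted proteins that bind to heparan sulfate on cells and matrix and guide white blood cells along a gradient through G protein-coupled receptors. The CC family is named for a pair of adjacent cysteines. Its inflammatory members are made by stromal cells in response to cytokines such as interleukin 1, in large part through NF-kappaB, and several belong to the secretory phenotype described in senescent cells. CCL20 is the chemokine ligand of CCR6, found on Th17 cells, B cells and immature dendritic cells. CCL2, CCL7, CCL8 and CCL13 are monocyte chemoattractants that act on CCR2 and, for some of them, on other receptors. CCL11 and CCL26 are eotaxins, which attract eosinophils through CCR3. CCL28 is best known from mucosal epithelium and acts on CCR10 and CCR3, and CCL5 acts on CCR1 and CCR3, among others.

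The genes lie at 5 places in the genome (hg38). CCL2 (ENSG00000108691.9, 34255274 to 34257208), CCL7 (ENSG00000108688.11, 34270221 to 34272242), CCL11 (ENSG00000172156.4, 34285742 to 34288334), CCL8 (ENSG00000108700.5, 34319435 to 34321402) and CCL13 (ENSG00000181374.8, 34356480 to 34358610) follow each other on the plus strand of chromosome 17. The stretch from CCL2 to the neighbouring CCL1 spans 107960 bases and holds 6 protein-coding genes, all of them CC chemokines. CCL5 (ENSG00000271503.6) lies further along chromosome 17 on the minus strand, from 35871491 to 35880793. CCL20 (ENSG00000115009.13) is on chromosome 2 from 227805739 to 227817564 on the plus strand, CCL26 (ENSG00000006606.9) on chromosome 7 from 75769533 to 75789896 and CCL28 (ENSG00000151882.11) on chromosome 5 from 43376645 to 43412391, both on the minus strand.

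Promoters of 6 of the 9 genes were in the RefSeq table (GRCh38.p14), and those of CCL2, CCL5 and CCL11 were not used here. The 4 promoters shown are those of the genes with the widest difference between MmC+ and MmC- libraries among the 6. Each is given 5′ to 3′ from 150 to 21 bases before the RefSeq start, on the plus strand, in lower case, with matches to the motifs named below in capitals.
CCL20, chr2:227813692-227813821: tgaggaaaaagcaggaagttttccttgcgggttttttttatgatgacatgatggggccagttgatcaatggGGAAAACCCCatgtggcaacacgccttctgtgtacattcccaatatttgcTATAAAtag
CCL13, chr17:34356330-34356459: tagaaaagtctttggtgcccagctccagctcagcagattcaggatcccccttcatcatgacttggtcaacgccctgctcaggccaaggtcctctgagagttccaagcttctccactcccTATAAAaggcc
CCL8, chr17:34319285-34319414: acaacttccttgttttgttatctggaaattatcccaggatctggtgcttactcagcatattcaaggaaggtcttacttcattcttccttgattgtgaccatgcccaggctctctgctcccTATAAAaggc
CCL7, chr17:34270071-34270200: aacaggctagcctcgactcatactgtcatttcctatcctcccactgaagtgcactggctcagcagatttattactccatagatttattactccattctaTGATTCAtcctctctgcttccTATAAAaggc
A TATA box, searched as TATAAA on both strands, lay on the gene's strand and began 29 to 31 bases before the start in all 4 promoters. It was found in 10.7% of the 35116 RefSeq promoters, searched over the 250 bases before the start as here. CCL20 also held a kappaB consensus match, GGGGTTTTCC on the opposite strand, from 79 to 70 bases before the start, where 9.96% of promoters held a match on either strand. CCL7 held TGATTCA, a match to the AP-1 motif TGANTCA, from 51 to 45 bases before the start, and 6.57% of promoters held 1. The STAT6 motif TTCNNNNGAA, held by 5.38% of promoters, was in none of the 6. The promoters of CCL26 and CCL28 held none of the motifs. A match of letters is not a measurement of binding.

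The authors deposited raw read counts per gene, and total counts lay between 71275337 and 144204979 per library, so that 1 count was worth 0.0139 CPM in the shallowest library and 0.00682 CPM in the deepest. CPM values, which set counts relative to 1 common library size, were computed here from the counts with library sizes scaled by TMM. The 4 MSC markers NT5E, THY1, ENG and CD44 summed to between 2983 and 3711 CPM in every library. The sum of 6 leukocyte markers lay between 2.08 and 3 CPM in MmC- and between 3.58 and 5.84 CPM in MmC+ libraries, with CD3E at 0 in every MmC- library and at most 0.0699 CPM elsewhere and CD3D at 0 in 14 of 16. PTPRC, the pan-leukocyte marker, reached 0.806 CPM. The sum of 3 endothelial markers lay between 7.82 and 11.2 CPM in MmC- and between 8.34 and 21.7 CPM in MmC+ libraries. Of these, PECAM1 had 4.89 to 7.56 CPM in MmC- and 5.57 to 19.7 CPM in MmC+ libraries, while CDH5, the endothelial cadherin, was lower after MmC, at 1.85 to 2.98 CPM in MmC- and 0.725 to 0.972 CPM in MmC+ libraries. The sum of the epithelial markers EPCAM and CDH1 lay between 0.512 and 1.13 CPM in all libraries. The part of such RNA in the results was not tested. In bulk RNA, a change in the number of cells that make a transcript and a change in the amount per cell cannot be told apart.

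Replicate 1 stood apart from the other replicates in both MmC+ groups. Its mean correlation with the other libraries of its group, across genes, was 0.9806 in MmC+/GDF11- and 0.98 in MmC+/GDF11+, while the other MmC+ libraries lay between 0.9877 and 0.9895. The fold changes of the chemokines for MmC are therefore given with and without replicate 1, as are those of the named listed genes whose call differs without it. The labels name no batch that separates it, and the study counts batch effects among its limitations without saying which libraries they touched.

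By group mean, CCL20 went from barely counted to the highest of the chemokines after CCL2, but in replicate 1 of both MmC+ groups it was below CCL7, CCL11, CCL13 and CCL26. In MmC-/GDF11- its counts in replicates 1 to 4 were 3, 13, 6 and 13, and in MmC+/GDF11- they were 290, 3998, 4200 and 4464. As CPM these were 0.039, 0.135, 0.0786 and 0.125 without MmC, and 2.94, 46.6, 46.9 and 51.4 with it. The groups did not overlap, and replicate 1 was far below the other 3 MmC+ libraries. With GDF11, the 4 MmC- libraries had 0.0556, 0.134, 0.0639 and 0.0112 CPM and the 4 MmC+ libraries 2.9, 39.1, 49 and 43.6 CPM. The pattern was the same, again with replicate 1 as the lowest MmC+ library. The counts summed over the group went from 35 to 12952 without GDF11, a ratio of 362 at equal depth (exact 95% interval 261 to 521), and from 20 to 15319 with GDF11, a ratio of 585 (378 to 957). These intervals cover counting error only. The fitted log2 fold change was 8.54 (SE 1.09) without GDF11 and 8.69 (SE 0.249) without replicate 1, and with GDF11 it was 9.01 (SE 1.15) and 9.34 (SE 0.27).

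**Figure D1:**
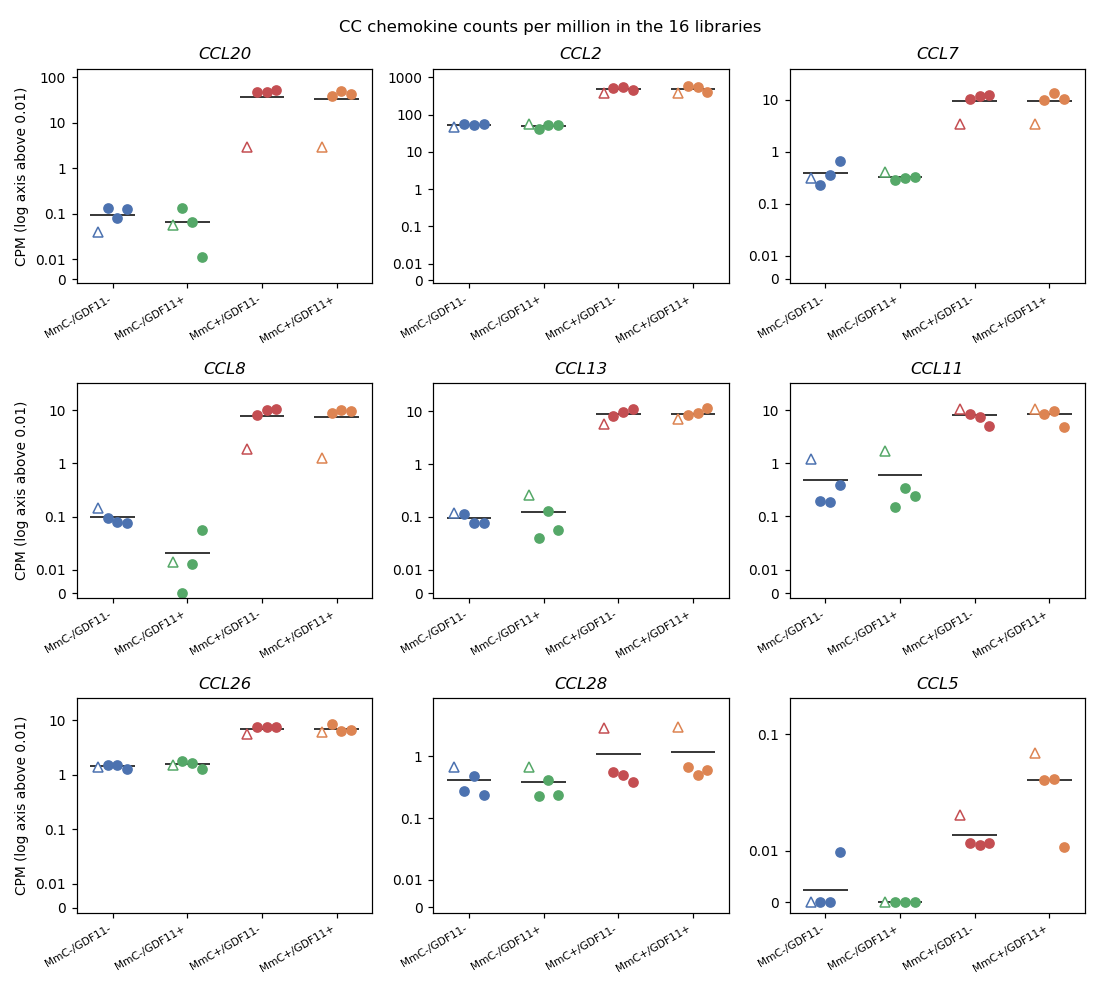
CPM of the 9 CC chemokines in the 16 libraries, 1 panel a gene, on an axis that is logarithmic above 0.01 and linear below. Points are libraries, open triangles are replicate 1, and lines are group means (n = 4). For CCL20, CCL7 and CCL8 the open triangles of the MmC+ groups lie below the other MmC+ points, and for CCL28 above them.

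Among the chemokines, the monocyte chemoattractant CCL2 formed the bulk of the signal. CCL2 was the highest of the 9 genes in every library. It had 46.1, 56.2, 51.4 and 57.4 CPM in MmC-/GDF11- and 383, 517, 567 and 454 CPM in MmC+/GDF11-, with means of 52.8 ± 5.14 and 480 ± 79.7 CPM (SD, n = 4). The lowest MmC+ library was far above the highest MmC- library, and no replicate stood out. With GDF11, CCL2 had 57.3, 41.8, 51.4 and 52.4 CPM without MmC and 377, 577, 562 and 413 CPM with it. The log2 fold changes were 3.19 (SE 0.166) and 3.25 (SE 0.167), or 3.22 and 3.42 without replicate 1. Among the monocyte chemoattractants CCL2 had the highest level and the smallest fold change.

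CCL7 (MCP-3) was counted 21 to 70 times in each MmC- library. It had 0.312, 0.228, 0.354 and 0.675 CPM in MmC-/GDF11- and 3.38, 10.4, 12 and 12.3 CPM in MmC+/GDF11-. With GDF11 it had 0.403, 0.282, 0.307 and 0.324 CPM, and 3.39, 9.82, 13.2 and 10.5 CPM after MmC. Replicate 1 was the lowest MmC+ library in both groups, but still above all MmC- libraries. The log2 fold change was 4.58 (SE 0.491) without and 4.81 (SE 0.503) with GDF11, or 4.76 and 5.19 without replicate 1.

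CCL8 (MCP-2) had 11, 9, 6 and 8 counts in MmC-/GDF11- and 188, 708, 912 and 942 counts in MmC+/GDF11-. With GDF11 the counts were 1, 0, 1 and 5 without MmC and 91, 864, 1473 and 910 after it. The summed counts gave a ratio of 79.2 (56.6 to 115) without GDF11 and of 364 (176 to 906) with it, the latter against only 7 counts in the 4 MmC-/GDF11+ libraries. Its MmC+ values were 1.9, 8.25, 10.2 and 10.8 CPM without GDF11, and replicate 1 was well below the others in both MmC+ groups. The log2 fold change was 6.31 (SE 0.74) without and 8.31 (SE 0.894) with GDF11, or 6.85 and 8.52 without replicate 1.

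CCL13 (MCP-4) was counted 3 to 19 times in each MmC- library. It had 0.117, 0.114, 0.0786 and 0.0771 CPM in MmC-/GDF11- and 5.88, 8.12, 9.73 and 11.2 CPM in MmC+/GDF11-. With GDF11 it had 0.264, 0.0402, 0.128 and 0.0558 CPM, and 7.14, 8.64, 9.13 and 11.4 CPM after MmC. The MmC+ libraries of CCL13 were closer together than those of CCL7 and CCL8, with a coefficient of variation of 26.3% in MmC+/GDF11- against 43.9% and 52.3%. The log2 fold change was 6.48 (SE 0.387) without and 6.24 (SE 0.381) with GDF11. Without replicate 1 these were 6.72 and 7.01, and leaving out only replicate 1 of MmC-/GDF11+ gave 6.92.

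The eotaxins CCL11 and CCL26 differed in how even they were. CCL11 had 1.18, 0.197, 0.183 and 0.386 CPM in MmC-/GDF11- and 10.7, 8.6, 7.55 and 5.06 CPM in MmC+/GDF11-. With GDF11 it had 1.72, 0.148, 0.345 and 0.246 CPM without MmC, and 10.7, 8.34, 9.49 and 4.88 CPM after it. Replicate 1 was the highest library of CCL11 in each of the 4 groups, which set it against CCL20, CCL7 and CCL8. The log2 fold change was 4.05 (SE 0.694) without and 3.78 (SE 0.683) with GDF11. It was 4.95 without replicate 1 of MmC-/GDF11- and 5.08 without replicate 1 of MmC-/GDF11+. Without replicate 1 of every group it was 4.76 (SE 0.358) and 4.93 (SE 0.365).

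CCL26 (eotaxin-3) was among the most even of the genes. It had 1.38, 1.52, 1.49 and 1.3 CPM in MmC-/GDF11- and 5.68, 7.42, 7.56 and 7.45 CPM in MmC+/GDF11-. With GDF11 it had 1.53, 1.76, 1.67 and 1.3 CPM, and 6.04, 8.69, 6.43 and 6.54 CPM after MmC. Replicate 1 was the lowest MmC+ library of both groups, and the groups did not overlap. The log2 fold change was 2.30 (SE 0.15) without and 2.15 (SE 0.15) with GDF11, and it was 2.38 without GDF11 when replicate 1 was left out.

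CCL28 differed from the other 7 genes tested in that its MmC+ and MmC- libraries overlapped. It had 0.676, 0.279, 0.485 and 0.241 CPM in MmC-/GDF11- and 2.87, 0.559, 0.502 and 0.38 CPM in MmC+/GDF11-. With GDF11 it had 0.667, 0.228, 0.409 and 0.235 CPM, and 2.99, 0.671, 0.505 and 0.597 CPM after MmC. Replicate 1 was the highest library in all 4 groups and carried most of the difference between the group means. The log2 fold change was 1.38 (SE 0.718) without GDF11 and 0.22 without replicate 1 of MmC+/GDF11-. With GDF11 it was 1.62 (SE 0.729), and 0.63 without replicate 1 of MmC+/GDF11+. Without replicate 1 of every group the 2 values were 0.54 (SE 0.304) and 1.02 (SE 0.304). With the replicate number as a block it was 1.02 and 1.38.

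CCL5 (RANTES) was close to the limit of counting. The MmC-/GDF11- libraries had 0, 0, 0 and 1 count and the MmC+/GDF11- libraries 2, 1, 1 and 1, a ratio of 4.9 with an exact counting interval from 0.548 to 232. With GDF11 the MmC- libraries had 0 counts in all 4, and the MmC+ libraries had 5, 4, 6 and 1. Set against a floor of 3 counts over the group, this was 4.07-fold higher. The exact counting interval of the ratio began at 2.94. All of the exonic 31-base words of CCL5 (100%) also occur on alternate contigs of hg38, and genes with such copies were often at 0 counts in the table, so its low counts do not show that the transcript was rare.

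Of the 9 genes, 7 were past an adjusted p of 0.05 by edgeR's quasi-likelihood test and higher after MmC, both without and with GDF11, where 22.9% and 23.4% of all 19103 genes were called higher (45.3% and 46.7% called in either direction). The same 7 had no overlap between the 4 MmC+ and 4 MmC- libraries in either comparison, which held for 37.3% and 41.5% of all genes. The median log2 fold change of the 8 genes tested was 4.32 without and 4.29 with GDF11, and that of all genes was -0.01 in both. These counts follow from how the genes were chosen, and CCL8, CCL13 and CCL20 did not pass the filter when it was applied to the 8 MmC- libraries alone. Nothing is read from them.

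**Figure D2:**
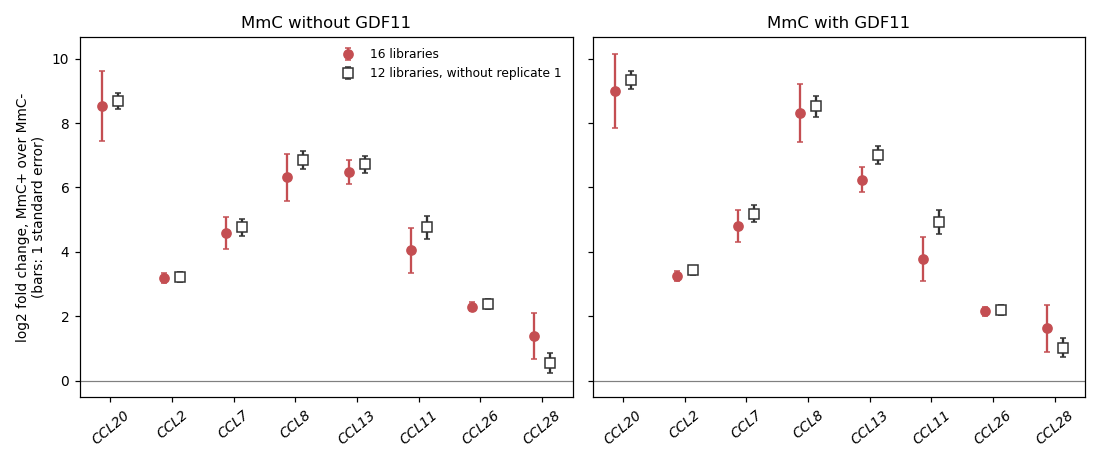
Fitted log2 fold change of MmC+ over MmC- for the 8 genes tested, without GDF11 (left) and with GDF11 (right). Filled circles use 16 libraries, open squares leave out replicate 1 of every group, and bars are 1 standard error. The order from CCL20 at 8.54 and 9.01 to CCL28 at 1.38 and 1.62 is wide, and the standard error of CCL20 is smaller without replicate 1.

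Levels were compared between genes as CPM per kilobase of exon. In MmC-/GDF11- the order was CCL2 at 27.3 ± 2.65, then CCL26 at 2.03 ± 0.146, then CCL11 at 0.485 ± 0.47 and CCL7 at 0.454 ± 0.227, whose libraries overlapped (SD, n = 4). CCL13, CCL8, CCL28 and CCL20 followed, between 0.117 and 0.0592, each overlapping its neighbour in the order, and CCL5 was last. In MmC+/GDF11- CCL2 was at 248 ± 41.2 and CCL20 at 23.2 ± 14.3, and the range of CCL20 overlapped that of CCL7 only because of replicate 1. CCL7, CCL13, CCL26, CCL8 and CCL11 lay between 11 and 7.94, each overlapping the next. CCL28 was at 0.238 ± 0.264, below all of these, and CCL5 at 0.01 ± 0.00324. With GDF11 the same gene sets stood at the top, in the middle and at the bottom, with CCL2 at 249 ± 52.8 and CCL20 at 21.1 ± 13.1 in MmC+/GDF11+. By group mean, CCL20 thus stood among the lowest genes in MmC- and next after CCL2 in MmC+. In replicate 1 of the MmC+ groups it was at 1.84 and 1.82 CPM per kilobase, below CCL7, CCL11, CCL13 and CCL26. The 5 genes in the middle were close together in MmC+ libraries, while in MmC-/GDF11- they had spanned 2.03 to 0.114.

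The distance of replicate 1 from replicates 2 to 4 had a direction for each gene. In MmC+/GDF11- CCL20 was 16.4-fold lower in replicate 1 than the mean of the others and in MmC+/GDF11+ 15.1-fold lower. CCL8 was 5.12-fold and 7.65-fold lower, and CCL7 3.42-fold and 3.29-fold lower. CCL13, CCL2 and CCL26 were also lowest in replicate 1, by 1.65-fold or less. CCL28 went the other way, at 5.97 and 5.07 times the mean of the others, and CCL11 was at 1.51 and 1.41 times. In the MmC- groups CCL11 was at 4.63 and 7 times the mean of the others, and CCL28 at 2.02 and 2.3 times, while CCL20 in replicate 1, at a few counts, was 2.89-fold lower in MmC-/GDF11- and lay among the other libraries in MmC-/GDF11+.

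Of the 8 genes tested, replicate 1 was the lowest library for 6 and the highest for 2 in each MmC+ group. Over all 19103 genes it was the lowest in 35.2% and 36.9% and the highest in 35.1% and 37.3%, so being at either end was common. The size was less so. Replicate 1 was at least 2-fold from the mean of the others in 11% and 11.5% of genes, and the difference of CCL20 was at the 0.0314 and 0.0785 percentile of all genes, that of CCL28 at the 99.9 percentile in both. PECAM1, the endothelial marker with the most counts, had 5.86 CPM in replicate 1 of MmC+/GDF11- and 15 to 18.4 CPM in the others, and CD14 had 4.8 CPM against 1.96 to 2.53 CPM. CDH5 was not lower in replicate 1, at 0.972 CPM against 0.725 to 0.921 CPM, nor was VWF, at 1.74 against 1.24 to 1.56 CPM. The other leukocyte markers did not go the way of CD14 in this group. ITGAM (0.182 against 0.221 to 0.265 CPM), CSF1R (0.304 against 0.38 to 0.897 CPM) and CD3E (0.0101 against 0.0223 to 0.0699 CPM) were lowest in replicate 1. PTPRC lay among the others, at 0.547 against 0.42 to 0.806 CPM, and CD3D had at most 0.0117 CPM. The part of these markers in the chemokine values was not tested.

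**Figure D3:**
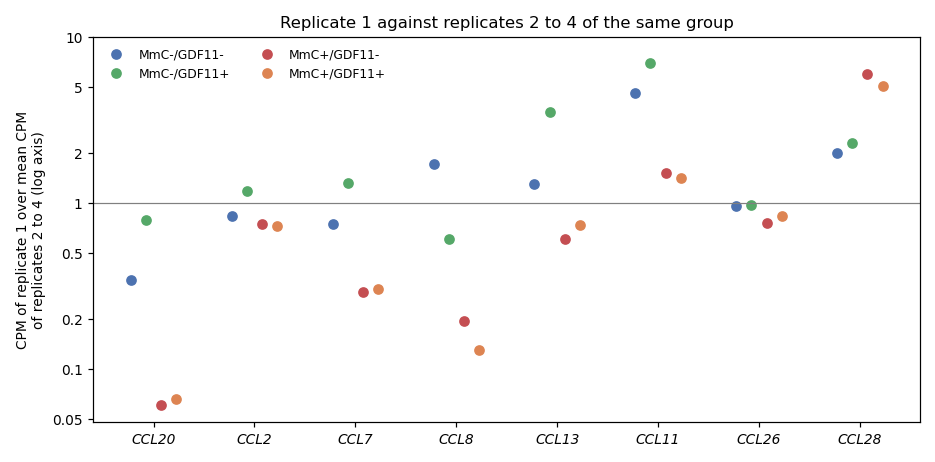
CPM of replicate 1 divided by the mean CPM of replicates 2 to 4 of the same group, on a logarithmic axis, for the 8 genes tested in the 4 groups. In the MmC+ groups CCL20 lies lowest, at 0.0608 and 0.0661, and CCL28 highest, at 5.97 and 5.07.

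Whether added GDF11 changed the chemokines was tested in young and in senescent MSCs, comparisons that were not used to choose the genes. In senescent MSCs no chemokine was called by edgeR's quasi-likelihood test, nor was any of the 19103 genes (0%), and 96 genes (0.503%) had an unadjusted p under 0.05. The log2 fold changes of MmC+/GDF11+ over MmC+/GDF11- were 0.00 for CCL2 (95% interval -0.32 to 0.33) and -0.02 for CCL26 (-0.32 to 0.28). These were the narrowest intervals of the 8 genes. For CCL20 the log2 fold change was -0.13 with an interval from -1.62 to 1.36, which is wide. Without replicate 1 it was -0.14 with a standard error of 0.152 in place of 0.7. The fit took no account of replicate numbers, and with them as a block the value was -0.11, also not called. Same-numbered libraries, replicates 1 to 4, had CCL20 ratios of 0.987, 0.838, 1.04 and 0.849. The other 5 genes tested had log2 fold changes between -0.06 and 0.12. In edgeR's test the unadjusted p of the 8 genes lay between 0.841 and 0.975. CCL5 was not tested. It had 5 counts in MmC+/GDF11- and 16 in MmC+/GDF11+, a ratio of 2.8 (0.982 to 9.79, counting error only). DESeq2 and limma-voom called 0 genes as well.

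In young MSCs no chemokine was called either, nor was any gene (0%, 1 gene by DESeq2 and 0 by limma-voom), and 226 genes (1.18%) had an unadjusted p under 0.05, none of them a chemokine. CCL8 was the chemokine with the lowest unadjusted p by edgeR's test, 0.112 (adjusted p = 1). Its CPM in replicates 1 to 4 were 0.143, 0.0932, 0.0786 and 0.0771 without GDF11 and 0.0139, 0, 0.0128 and 0.0558 with it. All 4 GDF11+ libraries were below all 4 GDF11- libraries, which was the case for no other chemokine, and groups without overlap were found for 0.89% of all genes. The summed counts were 34 and 7, a ratio of 0.232 (0.0867 to 0.531, counting error only). The fitted log2 fold change was -2.06 (SE 1.22) with an interval from -4.67 to 0.54. Without replicate 1 of every group it was -1.70 (SE 0.564), also not called. For CCL2 the log2 fold change was -0.06 (-0.38 to 0.27) and for CCL26 0.13 (-0.18 to 0.45), and for CCL20, with 35 and 20 counts, -0.60 (-4.16 to 2.95). CCL11 had 0.34 (-1.14 to 1.81) and CCL13 0.30 (-0.70 to 1.31), both of the other sign without replicate 1 of every group, at -0.08 and -0.28. CCL5 had 1 count in these 8 libraries and was not tested.

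The interaction, by which the effect of GDF11 in senescent MSCs differs from that in young MSCs, was not called for any chemokine or any gene (0%, and 0 by DESeq2 and limma-voom). It had an unadjusted p under 0.05 in 172 genes (0.9%), again a low share, so the lack of calls does not show its absence. CCL8 again had the lowest p of the 8 by edgeR's test, 0.156 (adjusted p = 1), at 2.00 on the log2 scale (SE 1.34, interval -0.86 to 4.86). Without replicate 1 of every group the interaction of CCL8 was 1.67 (SE 0.592), also not called. The higher CCL8 ratio for MmC with GDF11 than without it thus rests on the same 34 and 7 counts in young MSCs. The comparisons with and without GDF11 share their control libraries with these tests.

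**Figure D4:**
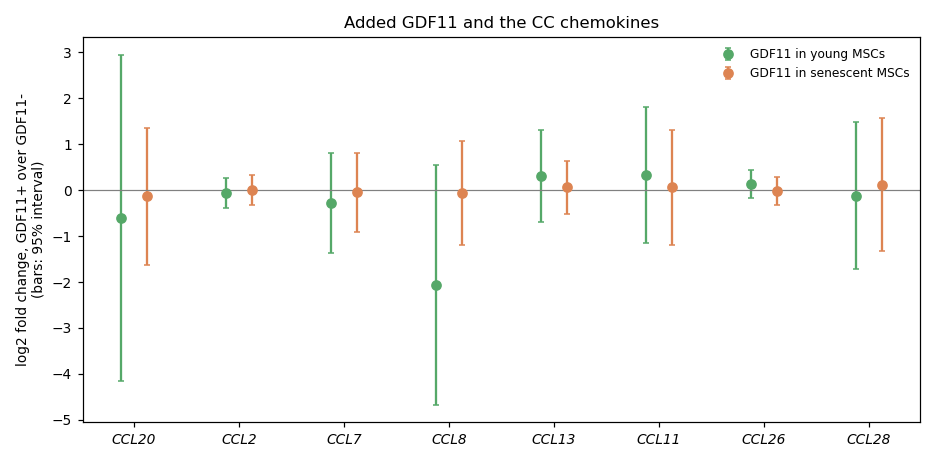
Fitted log2 fold change of GDF11+ over GDF11- for the 8 genes tested, in young MSCs and in senescent MSCs, with 95% intervals as bars. All intervals cross 0. Those of CCL2 and CCL26 are the narrowest, and those of CCL20 and CCL8 in young MSCs are the widest.

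Other genes of the chemokine system were taken from lists written from general knowledge, with earlier results of these data known. Their MmC calls are given as a description and are no independent test, and nothing is read from the counts below. Among all 19103 genes, 22.9% were called higher for MmC without GDF11 and 23.4% with it. Of 19 other CC ligands, 17 were in the table and none passed the filter. The highest counts in any library were 14 for CCL25, 8 for CCL24 and 7 for CCL1, the gene next to CCL13. CCL3, CCL3L3, CCL4, CCL4L2, CCL14, CCL15, CCL16, CCL18 and CCL27 were at 0 in all 16 libraries, and all of these but CCL27 share at least 96.6% of their exonic words with alternate contigs, so their zeros say little. The exons of CCL27 overlap those of other genes. The lymphoid ligands CCL19 and CCL21 have no such copies and had at most 2 counts in any library.

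Of 14 receptors, 6 were tested, and 3 passed in each MmC comparison, 2 higher and 1 lower. CCR4, the receptor of CCL17 and CCL22, was higher after MmC by a log2 fold change of 2.44 without GDF11 (edgeR's quasi-likelihood test, adjusted p = 0.00351) and of 1.54 with GDF11 (adjusted p = 0.0308), at 0.223 ± 0.13 CPM in MmC+/GDF11- (SD, n = 4). CCR7, the receptor of CCL19 and CCL21, was higher without GDF11 (1.95, edgeR adjusted p = 0.00208) and had 0.97 with GDF11 (adjusted p = 0.0856). CCRL2, a receptor that binds chemerin without signalling, had 0.91 without GDF11 (edgeR adjusted p = 0.111) and was higher with GDF11 (2.95, adjusted p = 0.000375). None of the 3 was above 0.368 CPM in any library. MmC- libraries held 1 to 12 counts of CCR4, 1 to 8 of CCR7 and 0 to 7 of CCRL2, and the highest MmC+ counts were 33, 27 and 26. The 3 genes passed the filter through the MmC+ libraries, so their differences are a description. For CCR4 with GDF11 the adjusted p by edgeR reached 0.0907 when single libraries were left out, CCR7 with GDF11 was called with the replicate number as a block (adjusted p = 0.0427), and CCRL2 without GDF11 was called without replicate 1 of every group (1.22, adjusted p = 0.0286). The interaction was not called for CCR7 or CCRL2 (edgeR unadjusted p = 0.149 and 0.0128, adjusted p = 1 for both).

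CCR10, the receptor of CCL28, was lower after MmC, from 7.9 ± 0.464 to 5.95 ± 0.955 CPM without GDF11 (SD, n = 4). Its log2 fold change was -0.41 without GDF11 (edgeR adjusted p = 0.0249) and -0.35 with it (adjusted p = 0.0474), and the adjusted p reached 0.094 and 0.166 when single libraries were left out. Its exons overlap those of CNTNAP1 on the other strand, and the strand setting of the counting is not given in the sources used here. CCR1, a receptor of CCL5 and CCL7, had 0.50 and 0.62 (edgeR adjusted p = 0.117 and 0.0524), and was called in both with the replicate number as a block (adjusted p = 0.0426 and 0.0195) and with GDF11 also without replicate 1 of every group (0.71, adjusted p = 0.0265). ACKR4, a scavenger of CCL19, CCL21 and CCL25, had 0.36 and 0.61 (edgeR adjusted p = 0.406 and 0.155), and its exons overlap ACAD11 on the other strand. Without replicate 1 of every group ACKR4 was called in both, at 0.68 and 0.86 (edgeR adjusted p = 0.0235 and 0.00631). CCR6, the receptor of CCL20, was at 0 in all 16 libraries, but 88% of its exonic words are shared with an overlapping gene on the same strand (ENSG00000272980), so this zero does not show absence. CCR2 and CCR3 had at most 9 counts in any library.

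Of 13 genes that cut, bind or retain chemokines, 9 were higher after MmC without GDF11, 10 with GDF11, and none lower. Without replicate 1 of every group, the sulfotransferase NDST1 (-0.38 and -0.42, edgeR adjusted p = 0.00309 and 0.00138) and the heparan sulfate proteoglycan SDC2 (-0.34 and -0.36, adjusted p = 0.00764 and 0.00569) were called lower. In that fit SDC1 (0.73 and 0.75, edgeR adjusted p = 0.000242 and 0.00019) was called higher in both comparisons. SDC3 was then also called higher without GDF11 (0.80, adjusted p = 8.47e-07). EXT1 was no longer called (0.13 and 0.18, adjusted p = 0.177 and 0.0811). MMP3, a protease that cleaves CCL2, CCL7, CCL8 and CCL13, went from 5.54 ± 2.07 to 780 ± 595 CPM without GDF11 (SD, n = 4), a log2 fold change of 7.13 (edgeR adjusted p = 3.5e-05). Replicate 1 of MmC+/GDF11- had 71.4 CPM of MMP3 and the others between 567 and 1455 CPM, as for CCL20 the lowest of the group by a wide gap. MMP1 (3.85) and the hyaluronan and chemokine binding protein TNFAIP6 (3.53) followed, then DPP4 (1.31), the dipeptidyl peptidase that shortens several chemokines at the N terminus, and MMP2 (1.23) and MMP14 (0.64). All 6 passed in both comparisons. Unlike CCL20, DPP4 was highest in replicate 1 of each group, at 947 CPM against 445 to 601 CPM in MmC+/GDF11-.

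Of 12 cytokines and cytokine receptors known to control these chemokines, 11 were tested, 7 were higher and 2 lower after MmC, in both comparisons. IL1B went from 4.52 ± 0.251 to 227 ± 128 CPM and IL1A from 0.883 ± 0.154 to 33.1 ± 15.9 CPM without GDF11 (SD, n = 4), log2 fold changes of 5.65 and 5.23 (edgeR adjusted p = 1.03e-06 and 1.07e-06). Replicate 1 of MmC+/GDF11- was again the lowest, 3.7-fold below the mean of the others for IL1B and 2.98-fold for IL1A. The receptors TNFRSF1A (-0.84) and IL17RC (-0.81) were lower, and IL4R (0.73), which takes part in the response to interleukin 4 and 13, and IFNGR1 (0.48) were higher. IL1R1, the receptor of both IL1A and IL1B, had 0.24 and 0.35 (edgeR adjusted p = 0.389 and 0.202), and was called without replicate 1 of every group at 0.51 and 0.61 (adjusted p = 0.0269 and 0.0106). TNF was listed at 0 in all libraries, and 100% of its exonic words lie also on alternate contigs.

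Of 12 transcription factors and feedback genes, 6 were higher after MmC in both comparisons and none lower. TNFAIP3 (A20), a feedback inhibitor and target of NF-kappaB, went from 25.1 ± 3.03 to 140 ± 3.31 CPM without GDF11 (SD, n = 4), a log2 fold change of 2.48 (edgeR adjusted p = 5.79e-11). Its MmC+ libraries were within 133 to 143 CPM, and replicate 1 did not stand apart, with 143 and 133 CPM. RELB (1.52), NFKB2 (1.44), NFKBIA (0.93) and RELA (0.41) also passed. NFKB1, STAT6, JUN and FOS had log2 fold changes between -0.10 and 0.10 without GDF11 and were not called. For FOS the 95% interval was wide, from -1.40 to 1.60. REL (0.69) and IRF1 (0.25) were not called without GDF11 either (edgeR adjusted p = 0.0712 and 0.0916). Without replicate 1 of every group REL and IRF1 were called in both comparisons. Without GDF11 they were then at 0.82 and 0.34 (edgeR adjusted p = 0.0341 and 0.0141). In all, 27 of 42 listed genes tested (64.3%) were called without and 28 (66.7%) with GDF11, against 45.3% and 46.7% of all genes. Since the lists were chosen with results known, nothing is read from these shares. For GDF11 in young MSCs, in senescent MSCs and for the interaction, 0 of the 42 were called by edgeR. At an unadjusted p under 0.05 there was 1 gene in young MSCs and 1 for the interaction, CCRL2 in each.

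**Figure D5:**
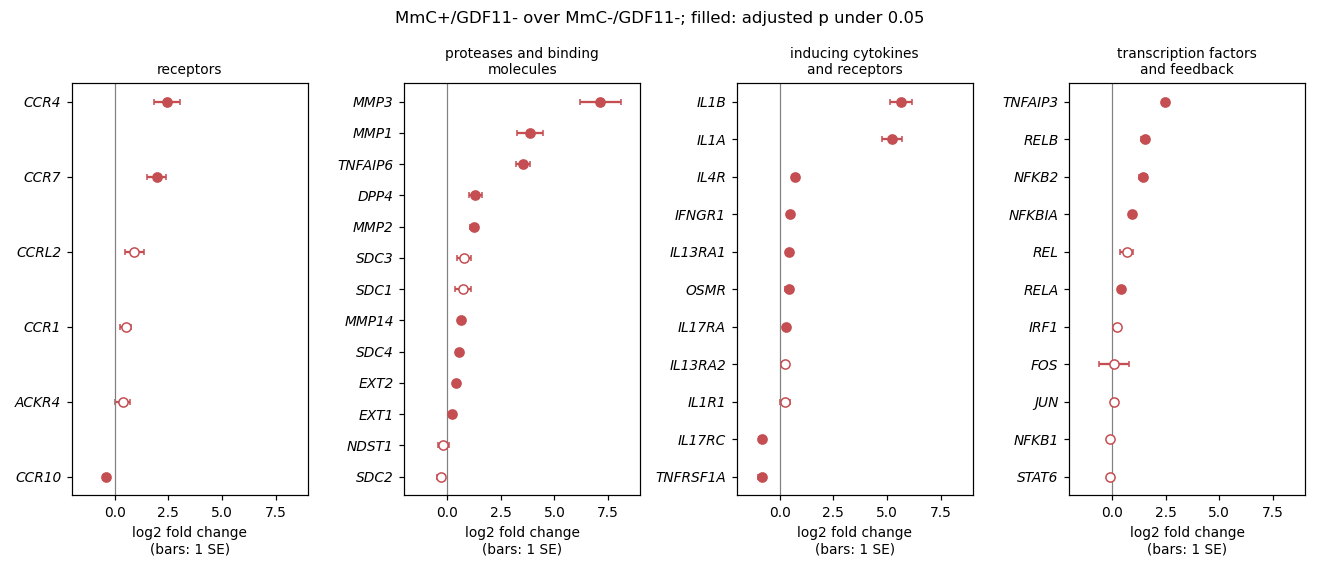
Fitted log2 fold change of MmC+/GDF11- over MmC-/GDF11- for listed genes that were tested, in 4 panels by role. Bars are 1 standard error, and filled circles have an adjusted p under 0.05. MMP3 at 7.13, IL1B at 5.65 and IL1A at 5.23 are farthest to the right, and TNFRSF1A at -0.84 is farthest to the left.

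The genes with profiles most like CCL20 were found by the root mean square difference between log2 CPM values centred on the mean of the 16 libraries, over 10966 genes. They were CXCL8 at 0.791, a neutrophil chemokine, IL6 at 0.886, HAS1 at 0.9, which makes hyaluronan, CXCL5 at 0.915 and MMP3 at 1.02, where the median gene had 4.24. For CCL2 they were TMEM217 at 0.0708, ZC3H12A at 0.206, a ribonuclease that degrades cytokine mRNAs, CDCP1 at 0.262, the protease CTSS at 0.273 and the protease inhibitor SERPINE2 at 0.279, where the median gene had 1.66. No gene stood in both sets. Values were centred but not scaled, so the measure depends on the size of the MmC difference, and nothing is read from this. This likeness is a description, with libraries of both MmC- and MmC+ groups in it. The log2 fold changes for MmC without GDF11 lay between 7.13 and 7.69 in the genes near CCL20 and between 2.83 and 3.15 in those near CCL2.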

How the data were processed

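RNA of 16 ASC52telo samples was sequenced as paired-end reads after poly(A) selection. Reads were mapped by the authors to hg38 (HISAT2 2.2.1) and assigned to GENCODE V38 genes (featureCounts 2.0.1). The raw counts per gene were deposited, without normalization. Strand, multi-mapping and read-pair settings are not given in the sources used here, and they could change genes with overlapping exons or copies on alternate contigs. The sample labels gave each group and replicate number. Symbols and positions came from GENCODE v44 on hg38, and 186 of 60649 identifiers had no match.

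Differential expression was tested in edgeR 4.0.16 (R 4.3.3) by the robust quasi-likelihood method. The filter on low counts was filterByExpr, with 10 as the minimum count and 15 as the minimum total. Scaling was by TMM. The model had a mean for each of the 4 groups and included the 16 libraries together. P-values were adjusted by the Benjamini-Hochberg method over 19103 genes, with a threshold of 0.05. The paper names no such test. The steps were tested on simulated data. Log2 CPM for likeness had a prior count of 2. Counting intervals are exact 95% intervals of summed counts, cover counting error only, and treat reads as independent. The floor for groups at 0 was 3 counts.

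The chemokines and the gene lists were chosen with earlier results of these data known. Named genes were all 9 chemokines, every receptor tested, up to 6 genes a list called in both MmC comparisons, and the 5 nearest genes of CCL20 and of CCL2 with a mean log2 CPM of at least 1. Genes named as not called, those named for a call that differed without replicate 1, those at or near 0 and the single markers were chosen after their values were seen.

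Same-numbered libraries were checked for shared deviations from their group means. The lowest correlation of such a pair, across genes, was 0.113 when MmC was compared without GDF11, and 0.448 when GDF11 was compared in senescent MSCs. The same value was 0.0293 for MmC with GDF11 and 0.0982 for GDF11 in young MSCs. Except for GDF11 in senescent MSCs, that lowest pair, replicate 3, was below a correlation with a different number. Those were 0.134 for MmC without GDF11, 0.0533 for MmC with GDF11 and 0.105 for GDF11 in young MSCs. Every other same-numbered pair was above the highest correlation of its control library with a different number. The pair of replicate 1 was the highest in each comparison. It reached 0.818 for GDF11 in senescent and 0.504 in young MSCs, and 0.368 for MmC without and 0.311 with GDF11. The main model used no pairing in any comparison, so its intervals and p-values ignore it. The replicate number entered only as a block among the alternatives. Any pairing comes from the data only. Alternatives were RLE and upper-quartile scaling, other filters, only the libraries compared, the replicate number as a block, DESeq2 1.42.0, limma-voom (limma 3.58.1), each library left out and replicate 1 left out of every group. Single values of 2 listed genes are not reported here or plotted, although the genes are part of the counts. Reads were not analysed here.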

Additional observations from a re-analysis of the deposited data

Results flagged for a closer look

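In 6 of 32 combinations of a chemokine and a group, 1 library lay far outside the other 3 by Dixon's gap ratio, where chance gives about 1 in 20. All 6 were replicate 1, and 5 were in MmC+ groups. Low values were those of CCL20 in MmC+/GDF11- (2.94 CPM, others 46.6 to 51.4), CCL8 in MmC+/GDF11+ (1.24 CPM, others 8.79 to 10) and CCL26 in MmC+/GDF11- (5.68 CPM, others 7.42 to 7.56). High values were those of CCL28 in MmC+/GDF11- (2.87 CPM, others 0.38 to 0.559) and in MmC+/GDF11+ (2.99 CPM, others 0.505 to 0.671) and of CCL11 in MmC-/GDF11+ (1.72 CPM, others 0.148 to 0.345). The 6 values are not independent, since the same culture number gave all of them. The share of all genes flagged by this rule is not given here. In MmC+/GDF11- and MmC+/GDF11+ replicate 1 was the lowest library in 35.2% and 36.9% of all 19103 genes. It was the highest in 35.1% and 37.3%. The count is therefore not read as particular to the chemokines.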

How the results depend on the processing

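The log2 fold changes of the chemokines for MmC were above 0 in all 270 values computed under the alternatives. With the replicate number as a block, 8 chemokines were called in place of 7 for MmC without and with GDF11, the addition being CCL28. Of the listed genes 33 were then called without and 36 with GDF11, in place of 27 and 28. Among the chemokines, the block changed no call other than those of CCL28. With GDF11, CCL28 was also called when replicate 1 was left out of every group, and CCL5 was called with no filter. A filter of 1 CPM in 4 libraries removed CCL28. These MmC calls are a description, since the chemokines and the lists were chosen with results known. The share of all genes called under each alternative is not given here, so nothing is read from the counts. For MmC with GDF11, the log2 fold change of CCL20 reached 9.61 when replicate 2 of MmC-/GDF11+ was left out, and CCL8 reached 9.51 when replicate 4 was.

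No chemokine was called for GDF11 or the interaction under any alternative. Of 458 such log2 fold changes, 57 had the other sign. With limma-voom they were CCL13 in young MSCs (-0.01), CCL2 and CCL7 in senescent MSCs (-0.01 and 0.03) and the interaction of CCL13 (0.10). Without replicate 1 of every group they were CCL11 and CCL13 in young MSCs (-0.08 and -0.28) and their interaction (0.18 and 0.28). With single libraries left out, the ranges that crossed 0 in senescent MSCs were -0.10 to 0.25 for CCL11, -0.09 to 0.20 for CCL13, -0.09 to 0.11 for CCL2, -0.52 to 0.25 for CCL20, -0.15 to 0.04 for CCL26, -0.87 to 1.29 for CCL28, -0.32 to 0.24 for CCL7 and -0.38 to 0.29 for CCL8. In young MSCs they were -0.96 to 1.23 for CCL11, -0.37 to 0.58 for CCL13, -0.12 to 0.03 for CCL2, -0.52 to 0.21 for CCL28 and -0.47 to 0.15 for CCL7. For the interaction they were -1.16 to 1.02 for CCL11, -0.52 to 0.43 for CCL13, -0.03 to 0.16 for CCL2, -0.76 to 1.40 for CCL28 and -0.19 to 0.50 for CCL7. The cause was not tested. DESeq2 called 1 of all genes for GDF11 in young MSCs, and leaving out libraries gave 0 to 1. Counts under 20 in MmC- libraries limit CCL8, CCL13 and CCL20 there.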
